A study of Mus musculus with 6 samples.

Results

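The ubiquitin-conjugating enzymes, or E2 enzymes, are described here as the genes whose name in the array design begins with Ube2. The array carried 37 such genes on 73 probes. A gene counted as measured if the scanner software placed at least 1 of its probes well above background in 3 or more of the 6 samples. This left 29 of the 22133 genes tested, each represented by its brightest probe. The 29 were well above background on all 6 arrays. Ube2h, Ube2l6 and Ube2o, E2 genes known for high expression in maturing red cell precursors, were set beside the other 26.

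The 6 samples were all of 1 line, G1E-ER-GATA-1, mouse erythroid precursors without GATA-1 of their own in which a fusion of GATA-1 to the hormone-binding part of the oestrogen receptor can be activated. In the control group (3 samples) a non-targeting siRNA was nucleofected at 0 h and 24 h, and in the knockdown group (3 samples) an siRNA against Mi2β. Both groups received β-estradiol at 24 h, which activates the GATA-1 fusion, and were harvested at 48 h. The comparison addresses transcripts that respond to loss of Mi2β, the nucleosome-remodelling ATPase of the NuRD complex encoded by Chd4, in cells with active GATA-1. Whether the replicates were separate cultures is not given in the labels, so the p-values cover the spread between samples, which could be technical only.

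Ubiquitin is activated by an E1 enzyme, passed to the active-site cysteine of an E2, and transferred to a protein with the help of an E3 ligase. The E2 largely sets which kind of ubiquitin chain is made, and some E2 enzymes carry ubiquitin-like modifiers such as SUMO, NEDD8 or ISG15 instead. In red cell precursors this system removes proteins and organelles as the cell matures, and E2 genes are part of the terminal erythroid programme.

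All 6 samples lay on 1 slide, 4 in its first row and 2 in its second, with both groups in each row. The share of probes well above background was 53% to 56.4% in the control samples and 48.5% to 74% in the knockdown samples. Knockdown replicate 2 held the 74% and was the only array whose extraction quality result the scanner software marked for evaluation. Levels are given as log2 signal minus the 75th percentile of the array, and a change is knockdown minus control on that log2 scale with its standard error (SE). "Rose" and "fell" are used of genes with a Benjamini-Hochberg adjusted p under 0.05 in limma's test over all genes. Of the 22133 genes, 1105 rose and 1010 fell, and the median change was -0.03.

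Chd4, the target of the siRNA, stood at 5.93, 6 and 5.75 on the control arrays and at 4.62, 4.6 and 4.54 on the knockdown arrays. The groups did not overlap, and Chd4 was 2.48-fold lower in the knockdown (change -1.31, SE 0.1, adjusted p = 0.00161). The erythroid marker genes matched the label of the line: 13 of 13 were well above background, and their summed signal ran from 4240 to 4860 times the array's 75th percentile in the control and from 4540 to 4990 in the knockdown. Of these, Epb42, Alas2 and Hbb-bt rose and Ahsp and Slc4a1 fell.

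Summed signals of megakaryocyte and mast cell markers also differed between the groups without overlap, at far lower sums. Of 9 megakaryocyte markers 8 were detected, each of the 9 on at least 1 array, and the sum ran from 62.4 to 67.5 in the control and from 21.4 to 28.5 in the knockdown. Of 8 mast cell markers 6 were detected, with Fcer1a and Ms4a2 well above background on no array. Among the 6, Tpsab1 was well above background on 0 control and 3 knockdown arrays, and Cma1 on 1 and 2. The sum of the mast cell markers ran from 1.13 to 1.35 in the control and from 3.52 to 4.01 in the knockdown. Myeloid markers (5 of 9 detected; Lyz2 and Mpo on no array) summed to between 19.9 and 25.7 in the control and between 24.1 and 25.8 in the knockdown. Lymphoid markers (3 of 8; Ms4a1 on no array) summed to between 3.13 and 3.42, and to between 2.68 and 4.33. Stromal markers (2 of 6; Col1a1, Pdgfra and Pdgfrb on no array) stayed at or below 0.357 in every sample. The part of these shifts in the results on E2 genes was not tested, and in these bulk samples fewer cells of a type and less RNA per cell cannot be told apart.

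As a family the E2 genes were little changed by the knockdown. None of the 29 measured genes rose and 1 fell, Ube2b, in limma's test with Benjamini-Hochberg adjustment over all genes; the 1 call is a share of 3.45%, while 4.99% of all genes rose, 4.56% fell and 9.56% did either. At an unadjusted p under 0.05 there were 4 genes, Ube2o and Ube2q2 above 0 and Ube2b and Ube2l6 below, or 13.8% against 23.9% of all genes. The 2 groups did not overlap in 9 of the 29 genes (31%), as in 31.1% of all genes. These shares were at or below the background of the experiment.

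Changes of the 29 genes ran from -0.44 to 0.56 with a median of -0.1, and their median size without regard to sign was 0.16, against 0.22 over all genes. The 95% interval of the change lay within 1 log2 unit of 0, a change below 2-fold either way, for 29 of 29 E2 genes and for 75.7% of all genes. A change of at most 0.5 was found for 28 of the 29 and for 80.9% of all genes, Ube2o being the exception. The E2 genes were mostly well expressed: 28 of them were among the 11067 genes of highest mean signal, where the interval lay within 1 unit for 91.2%, the change was at most 0.5 for 85.7%, the median size was 0.2 and 11.7% passed the threshold. With the 75th-percentile scaling 21 genes had a change below 0 and 8 above, but after quantile normalization the split was 15 to 14, and without control replicate 2 it was 14 to 15.

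**Figure D1:**
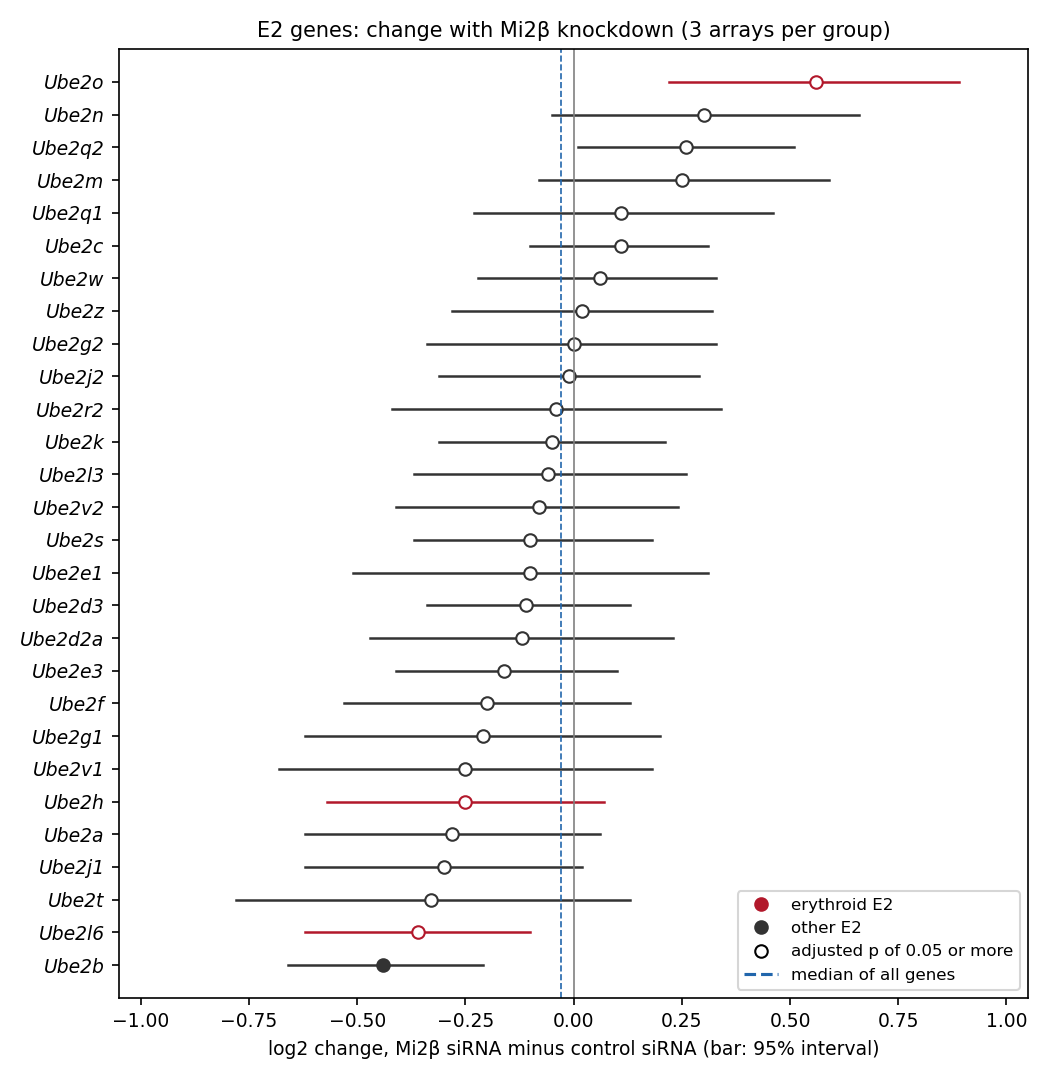
Change of 28 of the 29 measured E2 genes on the log2 scale, Mi2β siRNA minus control siRNA, with 3 arrays per group; points are the limma estimates, bars their 95% intervals, red marks Ube2h, Ube2l6 and Ube2o, and the dashed line is the median of all genes. Ube2b, at -0.44, has the only filled point (adjusted p under 0.05), Ube2o lies highest at 0.56, and no bar reaches -1 or 1.

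The erythroid E2 genes did not move together. Ube2h and Ube2l6 had changes of -0.25 and -0.36 and Ube2o had one of 0.56, none of them past the threshold, whereas the other 26 genes ran from -0.44 to 0.3 with a median of -0.09 (19 below 0 and 7 above). The change of Ube2o was the highest of the family, and those of Ube2l6 and Ube2h lay inside the range of the rest. In level the erythroid E2 genes were not the highest of the family here. Their control means were 0.1 (Ube2h), 4.24 (Ube2l6) and 3.52 (Ube2o), against 6.58 for Ube2j2. Only Ube2g1, at -0.67, lay below Ube2h.

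Ube2h is the partner of the CTLH ligase, a ring-shaped E3 assembly that works in erythroid maturation. It was read by 2 probes, and both are shown because their values differ in tightness; the first is given by its first 30 bases (brightest probe, chr6:30164075-30164134, minus strand, mm9) and the second in full, since read from its first base it has no stop codon before its last 3 bases, the stop codon in capitals.
Ube2h brightest probe: gctgtgaaactggacgcggttttggttttt
Ube2h second probe: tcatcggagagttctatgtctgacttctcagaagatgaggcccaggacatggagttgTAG
On the brightest probe the level was 0.09, 0.12 and 0.11 on the control arrays and -0.18, -0.34 and 0.08 on the knockdown arrays. Knockdown replicate 3 lay just below the lowest control and the other knockdown arrays lay further down, so the groups did not overlap but the knockdown spread was wide (0.1 ± 0.02 against -0.15 ± 0.21, SD, n = 3). The change was -0.25 (SE 0.13, 95% interval -0.57 to 0.07, adjusted p = 0.31). The second probe gave -0.12, -0.01 and -0.11 against -0.53, -0.32 and -0.33, again without overlap, with a change of -0.32 (SE 0.1, adjusted p = 0.143 in a limma fit over all 31853 probes).

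Of the 11 CTLH genes, all measured, none rose and 2 fell (18.2%, against 4.56% of all genes). With an array left out, the number that fell over the pathway lists, interferon and proliferation genes aside, was as low as 1. Ranbp10, a scaffold-like member related to Ranbp9, fell by 0.97 on the log2 scale (SE 0.1, adjusted p = 0.00381; 5.57 ± 0.03 against 4.6 ± 0.12), and Armc8, an armadillo-repeat subunit, fell by 0.39 (SE 0.09, adjusted p = 0.0492). Wdr26, Ypel5 and Maea had changes of 0.14, -0.13 and 0.07 with adjusted p of 0.402, 0.647 and 0.862. The median of the 11 was -0.02.

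Ube2l6 is the E2 that carries ISG15, an interferon-induced ubiquitin-like protein, and it is also abundant in late erythroid cells. Its probes are shown by their first 30 bases because they do not overlap and gave the same sign; the brightest is at chr2:84649861-84649920, plus strand, mm9.
Ube2l6 brightest probe: tgaatgaatactgcaatgcaaatgtgctat
Ube2l6 second probe: gtcataggcatgtccagatttaagtgttaa
On the brightest probe Ube2l6 stood at 4.31, 4.28 and 4.12 in the control and at 3.85, 3.78 and 3.98 in the knockdown. Every knockdown array lay below every control array. The level was 1.29-fold lower in the knockdown (4.24 ± 0.1 against 3.87 ± 0.1, SD, n = 3; change -0.36, SE 0.11, 95% interval -0.62 to -0.1), but the adjusted p of 0.0959 missed the threshold. The second probe read 0.99, 1.21 and 0.74 against 0.53, 0.44 and 0.55, without overlap, a change of -0.47 (SE 0.14, adjusted p = 0.115 over all probes). The adjusted p on the brightest probe was under 0.05 in 2 of 19 alternatives (0.0357 with an intensity trend, 0.0182 with array weights), reached 0.583 among the others, and ran from 0.0967 to 0.286 with 1 array left out.

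None of the 5 measured ISG15-pathway genes of 7 listed passed the threshold, and none had an unadjusted p under 0.05. Uba7, the E1 for ISG15, had a change of -0.32 (adjusted p = 0.213), Isg15 itself -0.31 (adjusted p = 0.239) and Usp18, which removes ISG15, 0.3 (adjusted p = 0.408). Genes of the wider interferon response were split: of 15 measured of 24 listed, 2 rose and 3 fell. Together these are 33.3%, against 9.56% of all genes called in either direction. Irf1, an interferon-induced transcription factor, rose by 1.61 (SE 0.13, adjusted p = 0.00175) and Ddx58, the RNA sensor RIG-I, by 0.43 (SE 0.09, adjusted p = 0.0411), while Ifit2 fell by 1.03 (adjusted p = 0.0311), Stat2, a subunit of the factor that drives type I interferon targets, fell by 0.65 (adjusted p = 0.0162), and the immunoproteasome subunit Psmb9 fell by 0.52 (adjusted p = 0.025).

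Ube2o is a large E2 that also acts as a ligase and, in reticulocytes, tags unassembled proteins and ribosomes for removal. It was read by 1 probe (chr11:116399379-116399438, minus strand, mm9), whose first 30 bases are given because no other probe checks it.
Ube2o probe: ataatgtgaagctccaggtagagaggatgc
Its level was 3.39, 3.59 and 3.59 on the control arrays and 4.07, 3.88 and 4.29 on the knockdown arrays. Each knockdown array was above all controls, and knockdown replicate 3 was the highest. The level was 1.47-fold higher in the knockdown (3.52 ± 0.11 against 4.08 ± 0.2, SD, n = 3; change 0.56, SE 0.14, 95% interval 0.22 to 0.89), the highest of the 29, with an adjusted p of 0.0592 in limma's test. The adjusted p was under 0.05 in 6 of 19 alternatives, 0.00559 with normexp background correction and 0.0288 with quantile normalization among them, but ran from 0.0658 to 0.19 with 1 array left out and reached 0.741 with median scaling.

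**Figure D2:**
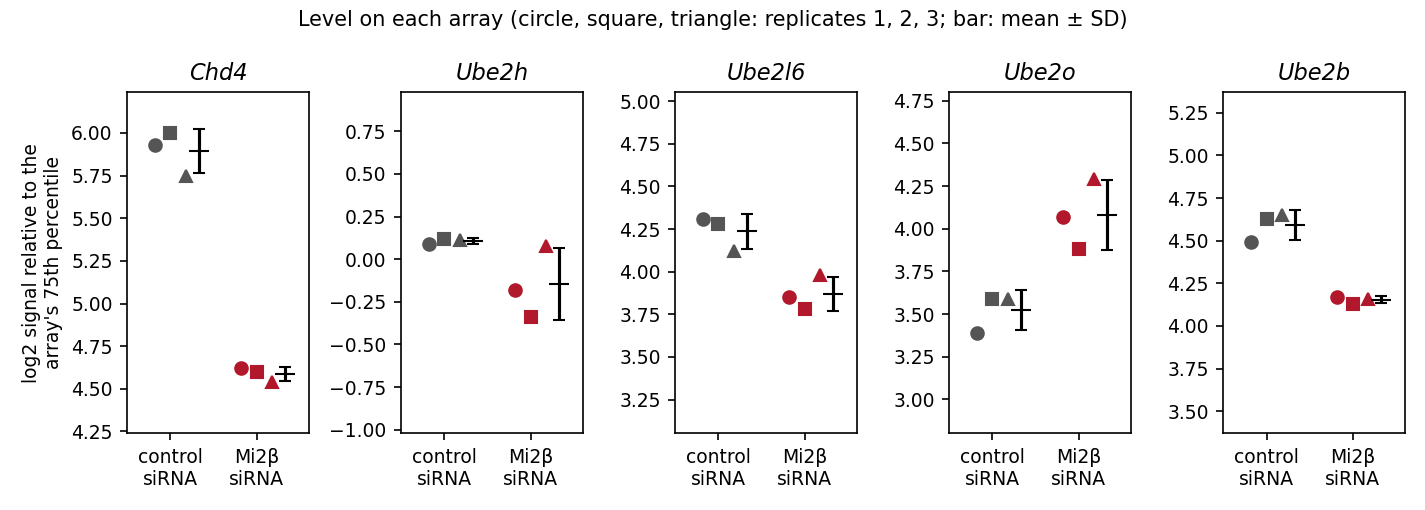
Level on each array, as log2 signal minus the array's 75th percentile, for Chd4 and the E2 genes Ube2h, Ube2l6, Ube2o and Ube2b in control siRNA (grey) and Mi2β siRNA (red) samples; circle, square and triangle are replicates 1, 2 and 3, the bar is the mean ± SD, and each vertical axis spans the same number of log2 units. The groups do not overlap in any panel, and the gap is widest for Chd4.

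Ube2a and Ube2b are the mammalian counterparts of yeast Rad6. With the ligases Rnf20 and Rnf40 they attach ubiquitin to histone H2B, and with Rad18 to the replication clamp PCNA. Ube2b was read by 3 probes; all are shown, since this gene alone passed the threshold and the first and second listed share 49 bases and are not separate readings. The brightest lies at chr11:51800169-51800228, minus strand, mm9. The probe over the active site is given whole, with the codons of the histidine-proline-asparagine motif and of the active-site cysteine in capitals. Searched with CAT as the only histidine codon, the motif was found in no other E2 probe. Its other spelling was not searched, so other probes may carry it.
Ube2b brightest probe: aagagagtttcggccattgttgagcaaagc
Ube2b second probe: ggccattgttgagcaaagctggaatgattc
Ube2b probe over the active site: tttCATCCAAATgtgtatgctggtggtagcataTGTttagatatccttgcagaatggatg

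Ube2b stood at 4.49, 4.63 and 4.65 on the control arrays and at 4.17, 4.13 and 4.16 on the knockdown arrays. The knockdown values were nearly identical to each other and below every control. Ube2b fell 1.35-fold (4.59 ± 0.09 against 4.15 ± 0.02, SD, n = 3; change -0.44, SE 0.09, 95% interval -0.66 to -0.21, adjusted p = 0.0388). The second probe had a change of -0.31 (adjusted p = 0.162 over all probes) and the probe over the active site one of -0.39 (1.74, 1.68 and 1.79 against 1.32, 1.29 and 1.43; adjusted p = 0.0657), and the groups did not overlap on either. The call did not hold when any 1 of the 6 arrays was left out (changes of -0.49 to -0.41, adjusted p of 0.0739 to 0.153) or with the slide row as a block (adjusted p = 0.0671). Within the first slide row, with 2 arrays per group, the change was -0.41 (adjusted p = 0.172). The adjusted p of Ube2b was under 0.05 in 6 of 19 alternatives, as many as for Ube2o. It was 0.0696 with quantile normalization and 0.0558 with the mean over probes.

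Ube2a stood at 3.72, 3.9 and 3.47 in the control and at 3.42, 3.32 and 3.52 in the knockdown, so the groups overlapped through control replicate 3 and knockdown replicate 3. Its change was -0.28 (SE 0.14, 95% interval -0.62 to 0.06, adjusted p = 0.293), and its second probe gave -0.11. None of the 7 Rad6 ligases and cofactors listed passed the threshold, with a median of -0.27 and a range from -0.35 (Rnf20) to 0.11 (Ubr4).

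Ube2n forms ubiquitin chains used in immune signalling and DNA repair, together with Ube2v1 or Ube2v2, which resemble E2 enzymes but lack the active-site cysteine. Ube2n stood at 1.9, 2.2 and 1.74 in the control and at 2.3, 2.13 and 2.32 in the knockdown, a change of 0.3 (SE 0.15, 95% interval -0.05 to 0.66, adjusted p = 0.278), and its second probe gave 0.03. Ube2v1 had a change of -0.25 (SE 0.18, 95% interval -0.68 to 0.18, adjusted p = 0.463), with knockdown replicate 2 lowest at 6.25 and the other arrays between 6.58 and 6.97. Ube2v2 had one of -0.08 (adjusted p = 0.75). The groups overlapped in all 3 genes.

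The E2 genes for ubiquitin-like modifiers were measured without a call. Ube2m and Ube2f both carry NEDD8, which activates cullin ligases, and their changes had opposite signs: 0.25 for Ube2m (SE 0.14, 95% interval -0.08 to 0.59, adjusted p = 0.338) and -0.2 for Ube2f (SE 0.13, 95% interval -0.53 to 0.13, adjusted p = 0.437). The second Ube2f probe gave 0.1. Ube2z, which receives ubiquitin or FAT10 from the E1 enzyme Uba6, had a change of 0.02 (95% interval -0.28 to 0.32).

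None of the 17 SUMO-pathway genes passed the threshold (median -0.08, from -0.55 for the ligase Pias4 to 0.42 for Sumo3). Of 18 NEDD8-pathway genes 1 fell (5.56%, against 4.56% of all genes), and the median was -0.04. The gene was Dcun1d1, which helps transfer NEDD8 to cullins and fell by 0.63 (SE 0.1, adjusted p = 0.0158).

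The 4 E2 genes of endoplasmic reticulum-associated degradation, which sends misfolded secretory proteins to the proteasome, had changes from -0.3 to 0. Ube2j1, anchored in the reticulum membrane, stood at 5.3, 5.63 and 5.34 in the control and at 5.13, 5.01 and 5.24 in the knockdown. The groups did not overlap, and the change was -0.3 (SE 0.13, 95% interval -0.62 to 0.02, adjusted p = 0.239). Its 2 dimmer probes gave -0.1 and 0.09, and this spread of 0.39 was the widest among the probes of any E2 gene. Ube2j2, also membrane-anchored, had a change of -0.01 (95% interval -0.31 to 0.29), Ube2g2 one of 0 (-0.34 to 0.33) and Ube2g1 one of -0.21 (-0.62 to 0.2).

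Of the 12 measured ligases and cofactors of this pathway, of 13 listed, 3 fell (25%) and none rose, with a median of -0.34, where 4.56% of all genes fell and 9.56% were called either way. Over the pathway lists together, interferon and proliferation genes aside, the number that fell dropped from 9 to as few as 1 with an array left out. Derl1, a derlin of the retrotranslocation channel, fell by 0.7 (SE 0.12, adjusted p = 0.0209), Aup1, which recruits Ube2g2 to lipid droplets and the reticulum, fell by 0.61 (SE 0.1, adjusted p = 0.0149), and the membrane ligase Rnf5 fell by 0.54 (SE 0.1, adjusted p = 0.0252).

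Ube2c and Ube2s start and extend ubiquitin chains on the anaphase-promoting complex (APC/C) in mitosis, and Ube2t is the E2 of the Fanconi anaemia crosslink repair pathway. Ube2c stood at 5.84, 5.92 and 5.86 in the control and at 6.01, 5.96 and 5.96 in the knockdown, a narrow separation without overlap (change 0.11, SE 0.08, 95% interval -0.1 to 0.31, adjusted p = 0.509). Ube2s had a change of -0.1 (95% interval -0.37 to 0.18). Ube2t stood at 0.96, 0.37 and 0.96 in the control and at 0.48, 0.32 and 0.5 in the knockdown: control replicate 2 lay with the knockdown arrays, the groups overlapped, and the change of -0.33 had the widest error of the family (SE 0.19, 95% interval -0.78 to 0.13, adjusted p = 0.355).

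None of the 17 APC/C genes passed the threshold in limma's test. An unadjusted p under 0.05 was found for 3 of them (17.6%, below the 23.9% of all genes). Anapc10 had a change of -0.8 (adjusted p = 0.165) but was well above background on only 1 of the 3 knockdown arrays, Fzr1, an activator of the complex, had one of -0.41 (adjusted p = 0.162) and Cdc23 one of 0.36 (adjusted p = 0.127). Of 20 measured proliferation markers 2 fell (10%, against 4.56% of all genes), and the median of the 20 was -0.28. Mki67 fell by 0.5 (SE 0.09, adjusted p = 0.0238) and Ccnb2, a mitotic cyclin, by 0.49 (SE 0.1, adjusted p = 0.0403). At an unadjusted p under 0.05 there were 10 of the 20, all below 0 (50%, against 23.9% of all genes). The largest changes that missed the threshold were those of Mcm5 (-0.46, adjusted p = 0.067), Mcm3 (-0.38, adjusted p = 0.162) and Kif20a (-0.38, adjusted p = 0.19). Of 12 Fanconi anaemia genes 2 fell (16.7%, against 4.56% of all genes). Fanci, the partner of Fancd2 and a substrate of Ube2t, fell by 1.19 (SE 0.17, adjusted p = 0.0107) and the core-complex gene Fancg by 0.86 (SE 0.14, adjusted p = 0.0178).

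The 8 measured E2 genes that work with many ligases had small changes, from -0.16 to 0.06 with a median of -0.08. Ube2d2a and Ube2d3, general partners of RING ligases, had changes of -0.12 (SE 0.14, adjusted p = 0.678) and -0.11 (SE 0.1, adjusted p = 0.563). Ube2e1 and Ube2e3, with an amino-terminal extension, had changes of -0.1 and -0.16. Ube2l3, which hands ubiquitin to ligases that have a cysteine of their own, had one of -0.06 (95% interval -0.37 to 0.26), and none of the 10 measured RING-between-RING ligases it serves passed the threshold (median -0.11). Ube2k had a change of -0.05, the cullin partner Ube2r2 one of -0.04, and Ube2w, which modifies amino termini, one of 0.06. Ube2w was the gene of this class whose probes differed most: the dimmer 2 gave 0.04 and 0.33, the latter with levels of -0.08, -0.16 and -0.01 against 0.29, 0.17 and 0.27 and no overlap (SE 0.1, adjusted p = 0.107 over all probes).

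Ube2q1 and Ube2q2, which have a long amino-terminal part before the E2 fold, had changes of 0.11 and 0.26. Ube2q2 stood at 2.05, 2.13 and 1.92 in the control and at 2.24, 2.38 and 2.26 in the knockdown, without overlap (SE 0.1, 95% interval 0.01 to 0.51, adjusted p = 0.194), and its second probe gave 0.38 (1.41, 1.7 and 1.48 against 2, 2 and 1.71). Ube2q1 overlapped between groups (95% interval -0.23 to 0.46).

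The remaining 8 genes did not pass the detection filter. Ube2d1, Ube2e2, Ube2ql1 and Ube2u were well above background on no array. Ube2cbp, whose product binds E2 enzymes and is a ligase, and Ube2dnl1 and Ube2dnl2 were so on knockdown replicate 2 only, the array with the most probes above background, and Ube2d2b on control replicate 2 and knockdown replicate 2. No change is given for these genes.

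Several probes read the same E2 gene in 21 of the 29 cases, which allowed the changes to be compared within a gene. In 14 of the 21 all probes had the same sign, and 27 of the 34 additional probes had the sign of the brightest. The range between probes of a gene had a median of 0.13, close to the median SE of the 29 changes, 0.13 (0.15 over all genes). Tested one by one over all probes, 1 E2 probe fell, the brightest of Ube2b (adjusted p = 0.0479), and none rose.

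**Figure D3:**
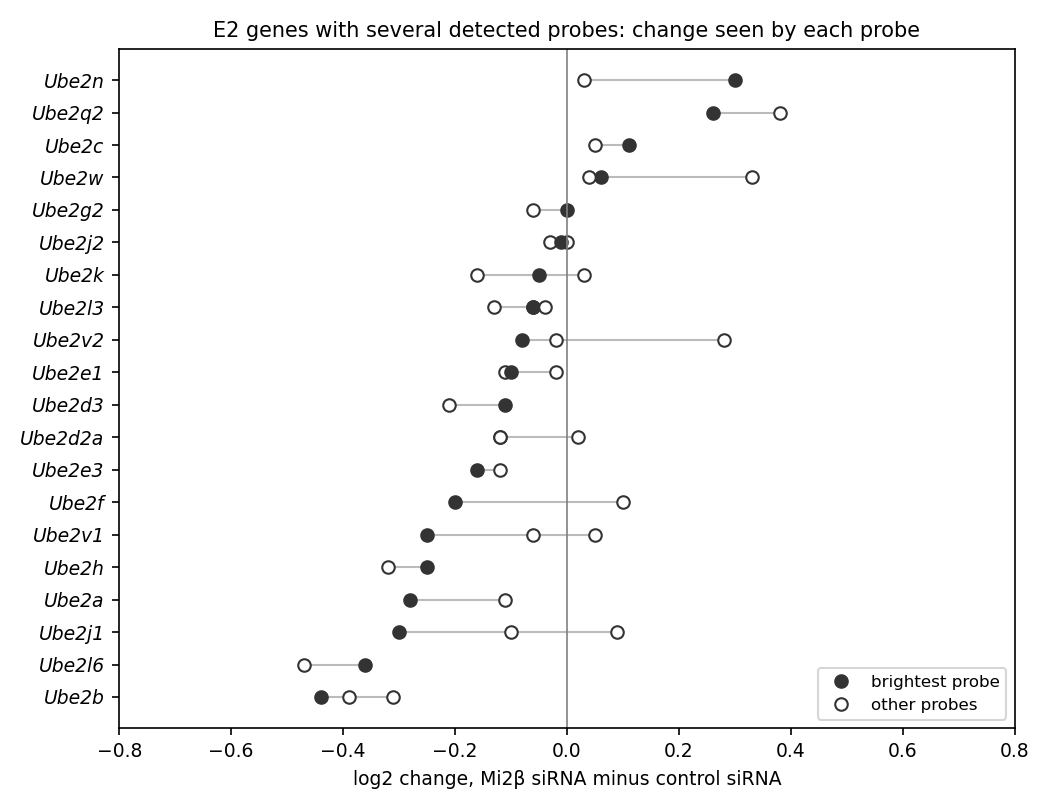
Change on the log2 scale seen by each probe, Mi2β siRNA minus control siRNA, for 20 of the 21 E2 genes with several detected probes; filled points are the brightest probe, open points the others, and a line joins the probes of a gene. The probes of Ube2b, Ube2l6, Ube2h and Ube2a all lie below 0 and those of Ube2q2 above 0, while those of Ube2j1 run from -0.3 to 0.09.

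Many E2 genes deviated the same way on the same array. The median deviation of the 29 genes from their own means was 0.04, 0.2 and -0.1 on control replicates 1, 2 and 3 and 0, -0.15 and 0.02 on knockdown replicates 1, 2 and 3, whereas the same median over all genes stayed between -0.07 and 0.05. Control replicate 3 held the lowest control value of 20 of the 29 genes, and knockdown replicate 2 the lowest knockdown value of 25. Quantile normalization narrowed these medians to between -0.07 and 0.08. Without knockdown replicate 2 the family median was -0.05 (18 genes below 0, 11 above) and without control replicate 2 it was 0.02; no E2 gene passed the threshold in either case.

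**Figure D4:**
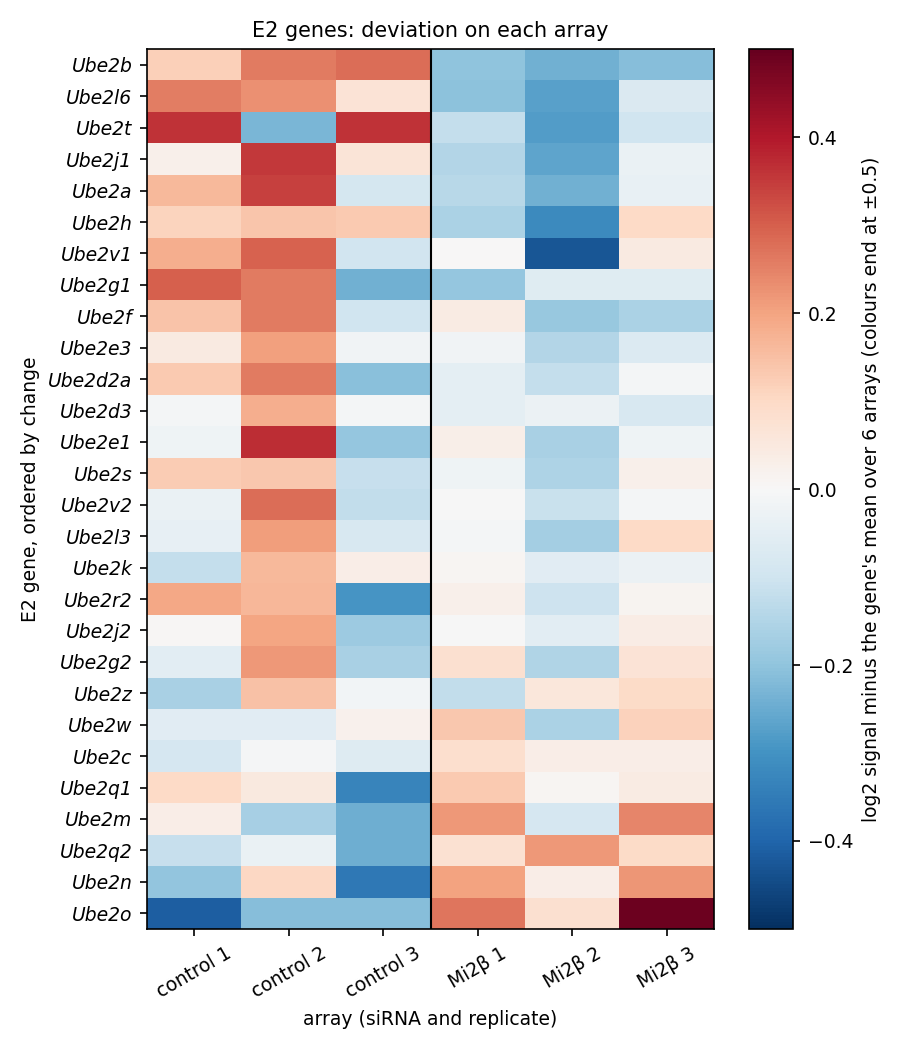
Deviation of the log2 signal of 28 of the 29 E2 genes from each gene's mean over the 6 arrays (blue lower, red higher, colours ending at -0.5 and 0.5), with genes ordered by their change and arrays by group and replicate. Control replicate 2 is red for most genes and knockdown replicate 2 blue, and Ube2b, Ube2l6 and Ube2o are the rows whose colour turns most clearly between groups.

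Outside the Ube2 name, 8 further E2 and E2-like genes were measured of 9 listed, and 1 fell (12.5%, against 4.56% of all genes). The gene was Atg3, the E2-like enzyme that couples LC3 to lipid in autophagy. Atg3 fell by 0.51 (SE 0.1, adjusted p = 0.0312, 2.67 ± 0.02 against 2.16 ± 0.12, SD, n = 3). Ufc1, the E2 for UFM1, had a change of -0.47 (adjusted p = 0.0512) and Cdc34, a cullin partner, one of 0.14 (adjusted p = 0.583). None of the 14 ubiquitin and E1 genes passed the threshold; their changes ran from -0.46 to 0.08, with Uba1, the main ubiquitin E1, at 0.07 and the polyubiquitin gene Ubb at -0.28 (adjusted p = 0.121). Over the 125 measured genes of these pathways, leaving the interferon and proliferation lists aside, none rose and 9 fell, with a median of -0.13. The 9 are 7.2%, against 4.56% of all genes that fell and 9.56% called in either direction. At an unadjusted p under 0.05 there were 4 above 0 and 27 below, together 24.8%, against 23.9% of all genes. The number that fell depended on the arrays used, at 1 without knockdown replicate 1, 2 without control replicate 1 or 2, and 4 without knockdown replicate 2.

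**Figure D5:**
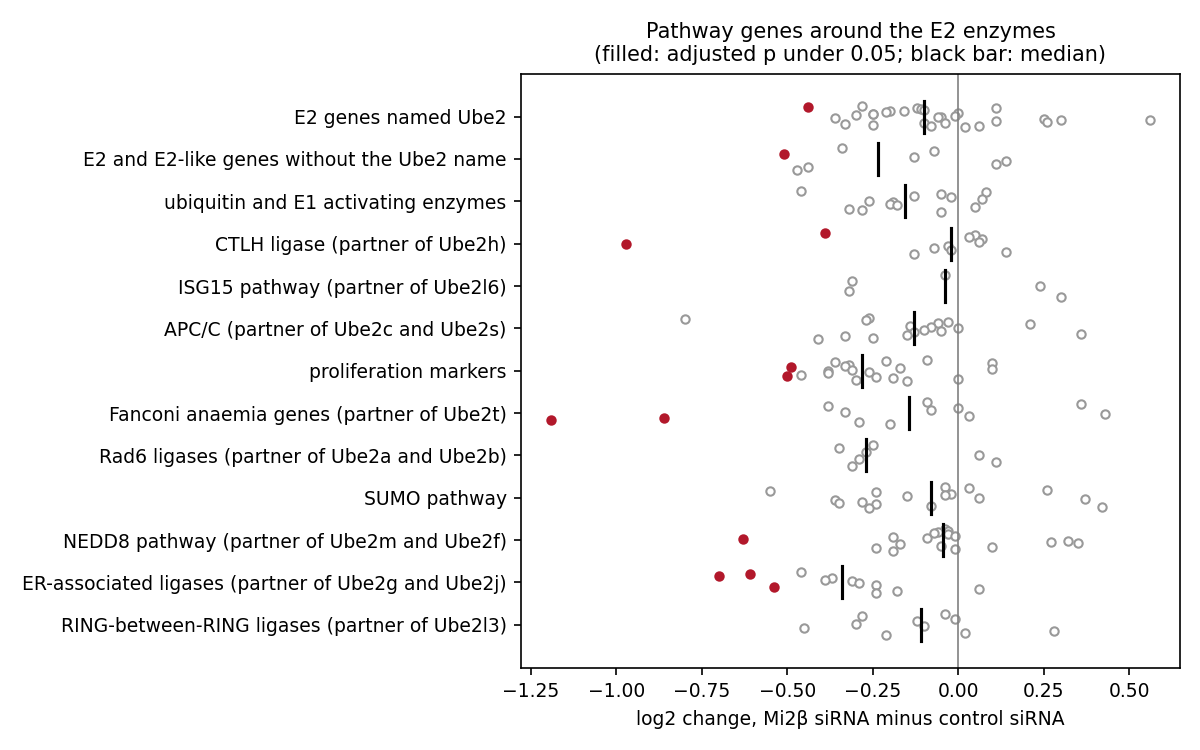
Change on the log2 scale, Mi2β siRNA minus control siRNA, of the E2 genes and of the pathway genes around them, filled where the adjusted p is under 0.05. Each list has 1 point per gene, and a gene of several lists is drawn in each. Black bars are list medians, and the interferon list is not drawn. The E2 genes lie between -0.44 and 0.56, and the lowest points are Fanci at -1.19 and Ranbp10 at -0.97.

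The promoters of the E2 genes were rich in G and C. In the RefSeq table of GRCm38.p6, 22 of the 29 genes matched, with 32 promoters of 250 bases before to 50 after the start, and their median GC content was 69.2%, against 52.7% for all 32851 promoters. The GATA motif, searched on both strands as the letters AGATAA or TGATAA or AGATAG or TGATAG, was in 2 of the 32 (6.25%), against 29.8% of all promoters. Among promoters with a GC content of at least 60%, it was in 0 of 23 of the E2 genes and in 9.33% of all 9690. The matches were in Ube2h, at 204 bases before its second listed start, and in Ube2s. Those not matched included Ube2d2a, Ube2e3, Ube2g2, Ube2o, Ube2v2 and Ube2w. A match describes these letters only.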

How the data were processed

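Total RNA (0.1 µg per sample, per the labels) was labelled with Cy3, and each sample was read on its own one-colour Agilent array. Per the file headers, the deposited values are linear, background-subtracted spot intensities made by Agilent's software Feature Extraction (version 10.7.3.1), with detection flags given as other values; they were not normalized between arrays. The deposited value table holds the same intensities: 100% of values lay within 0.005 of the scanner's, so it is linear and not centred, with column medians of 21.23, 16.95 and 20.92 (control 1 to 3) and 25.9, 36.93 and 17.83 (knockdown 1 to 3). The submitters' processing notes name Feature Extraction and limma, with settings not given in the sources used here.

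From the 62976 deposited spots per array, control and outlier-flagged spots were left out, and spots of a probe were averaged on the log2 scale (55681 probes). The 75th percentile of each array was then subtracted. It was taken over all non-control spots of the array, outlier-flagged ones included. Probes well above background on at least 3 arrays were kept (31889), the brightest per gene. No spot was saturated. Groups were compared without covariates by limma's moderated test (version 3.58.1, R 4.3.3; two-sided, Benjamini-Hochberg over 22133 genes, threshold 0.05); the procedure was tested on simulated data. Names are those of the array, updated for 27509 of 29150 RefSeq accessions through GRCm38.p6. Probe coordinates are mm9 (NCBI build 37), per the file headers; exons and untranslated regions were not analysed here.

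The members and the gene lists were chosen with earlier results of these data known. The text names every E2 gene except 1, which is not reported here and stays in the counts, up to 4 changed genes of each list by size, and up to 3 that missed the threshold in the ISG15, CTLH, APC/C and proliferation lists; other genes were named after their values were seen. The labels do not say that replicate numbers pair samples, and correlations of same-numbered samples were 0.21, -0.32 and 0.13. The number of arrays limits the precision. Background correction, normalization, filters, variance model, array weights, probe rule, slide row, replicate block and each array left out were tried as alternatives.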

Additional observations from a re-analysis of the deposited data

How the results depend on the processing

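Across 19 alternatives, 1 of them chosen after seeing the data (a percentile taken over averaged probes; the test of single probes was also added then), no called change reversed, Chd4 passed the threshold in every one (-1.54 to -1.23), and Ube2h, Ube2l6 and Ube2b stayed below 0 and Ube2o above 0; 12 E2 genes that were not called changed sign in some. The count of E2 genes that rose was 1 with normexp and percentile scaling, quantile normalization, the detection filter on all 6 arrays, array weights or an intensity trend, and 4 with normexp and quantile normalization. The count that fell was 0 with quantile normalization, median scaling, no detection filter, the mean over probes, the slide row as a block or the first row alone, 2 with the trend or weights, and 0 to 0 with an array left out. Ube2o passed at 0.57 (normexp), 0.62 (normexp and quantile), 0.63 (quantile), 0.56 (all 6 arrays; trend) and 0.59 (weights), and Ube2l6 at -0.36 (trend) and -0.41 (weights). The pathway counts leave the interferon and proliferation lists aside, and calls in those lists were not recounted in the alternatives. Pathway genes that rose numbered 3 with either normexp setting, 2 with quantile or trend, 1 with all 6 arrays and 5 with weights, and 0 to 0 with an array left out. Those that fell numbered 14 and 15 with normexp, 15 with the trend, 26 with weights, 2 with median scaling, no filter or the first row, and 1 to 7 with an array left out. The replicate block gave 0 E2 genes and 1 pathway gene that fell. Whether the replicate numbers pair the samples is not given in the labels. Causes were not tested.

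Median scaling moved the median of all genes to -0.27, and 25 of the 29 E2 genes were below 0 there, with a median of -0.33. Rises made up 52.2% of all calls, 59.7% with median scaling, 66.6% with no filter and 73.3% with the replicate block, but 45.8% with normexp and percentile scaling, 45.9% with the trend and 46.1% with weights or detection on all 6 arrays. With 3 arrays per group, changes well above the E2 genes' usual SE of 0.13 could miss the threshold. Ube2o at 0.56 (SE 0.14) and Ube2l6 at -0.36 (SE 0.11) did so in the main setting. Counts at 1 or 0 calls say little about stability.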
